A study of Mus musculus with 4 samples.

Results

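The mRNA of 9 genes that set vessel tone, Edn1, Ednrb, Ece1, Nos2, Nos3, Nostrin, Ptgs1, Ptgs2 and Ptgis, was followed across 5 endothelial classes and pericyte-like cells of the neonatal mouse ear. The genes were chosen by symbol, and all 9 were found among the 31054 features of both mRNA matrices. The tissue came from C57BL/6 mice at postnatal day 8, and the cells had been enriched for CD31 and sorted alive as CD31+, Cdh5CreERT2-Rtom+ cells. All cells compared here came through this sort, and the recombinase of its red reporter is driven by the endothelial gene Cdh5. Whether each cell carried the reporter was not checked here. There were 2 libraries of single-cell mRNA, labelled as biological replicates, each with a library of antibody tags on the same cells. The labels do not say how many animals went into each library, and the adult and wounded samples of the study were not analysed here. The design has no treatment, so the comparisons are between classes of cells within the libraries: pericyte-like with endothelial, lymphatic-like with blood endothelial, tip-like with capillary-like, capillary-like with artery- and vein-like, and artery-like with vein-like. Every p-value therefore rests on 2 libraries.

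Endothelial cells act on the tension of the surrounding mural cells through 3 kinds of signal. Endothelin 1 is made as a precursor from Edn1, cut to its active form by the endothelin-converting enzyme of Ece1, and bound by the receptors of Ednra and Ednrb. Ednra on mural cells mediates constriction, whereas Ednrb on endothelium clears endothelin and couples to nitric oxide release. Nitric oxide is made by the endothelial synthase of Nos3 and the inducible synthase of Nos2, and NOSTRIN, the product of Nostrin, binds the endothelial synthase and affects where it sits in the cell. Prostanoids begin with the cyclooxygenases of Ptgs1 and Ptgs2, and the prostacyclin synthase of Ptgis makes the dilator prostacyclin.

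The classes were set by marker genes that include none of the 9 genes and none of their pathway partners. No member was thus used to set a class, but the values still depend on where the gate lies. After filtering, 1498 and 2239 cells were used in libraries 1 and 2, with medians of 8459 and 8982 unique molecular identifiers (UMIs) per cell. Pericyte-like cells numbered 95 and 134, lymphatic-like cells 292 and 582, tip-like cells 146 and 227, capillary-like cells 142 and 179, artery-like cells 206 and 223, and vein-like cells 182 and 164. A further 380 and 635 blood endothelial cells had no class that led the next by the required margin. Within 0.1 of that margin lay 115 of 1056 and 157 of 1428 blood endothelial cells. Vein-like cells carried capillary markers at a sum of 18483 and 17397 CPM (counts per 1e+06 UMIs), against 28240 and 21777 in capillary-like and 10106 and 9447 in tip-like cells. Of the 12 capillary markers, the median cell held 4 and 6 in vein-like, 6.5 and 7 in tip-like and 7 and 6 in pericyte-like cells, against 8 in capillary-like cells of both libraries. Vein-, tip- and pericyte-like cells thus share many capillary markers. The 2 libraries shared 3 barcodes. The median difference of library 2 over library 1 for NF-kB and cytokine genes lay between 0.96 (pericyte-like) and 1.79 (capillary-like) on the log2 scale. For immediate-early and stress genes that median lay between 0.13 in lymphatic-like and 0.80 in capillary-like cells.

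Levels are UMIs summed per library and class and scaled to CPM with TMM factors, given for library 1 and then library 2. Over all barcodes the members held 4231 and 7621 UMIs (Ece1), 1247 and 1561 (Ednrb), 864 and 1108 (Nos3), 835 and 834 (Edn1), 744 and 630 (Ptgs1), 373 and 615 (Nos2), 335 and 498 (Nostrin), 29 and 27 (Ptgis) and 9 and 4 (Ptgs2). The low-count filter passed 7 of the 9, and Ptgis and Ptgs2 were not tested. A member that passes through the class in which it is high can hardly fail to differ, so the values of each class are given before any test. For marker sums and for parts of a class, unscaled CPM (without TMM factors) are given. CPM values compare 1 gene between classes and not genes with each other.

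**Figure D1:**
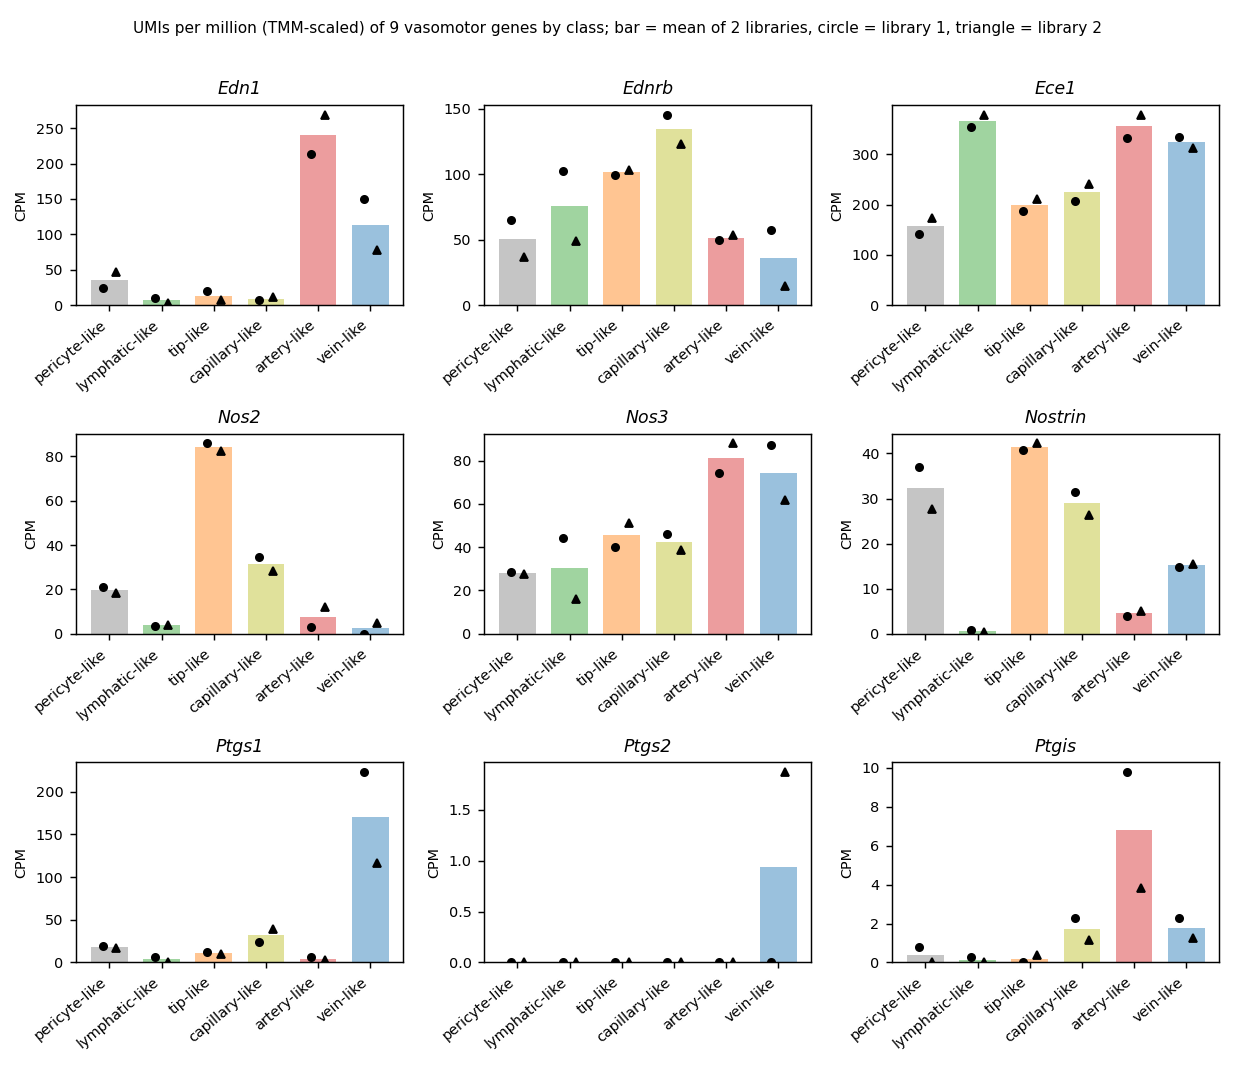
Levels of the 9 genes in CPM (vertical axes, each from 0) in the 6 classes; bars are means of 2 libraries, circles library 1 and triangles library 2. Edn1 stands highest in artery-like cells (213 and 269 CPM), Ptgs1 in vein-like cells (223 and 117 CPM), Nos2 in tip-like cells (85.9 and 82.5 CPM) and Ednrb in capillary-like cells (145 and 123 CPM).

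Edn1 mRNA was high in artery- and vein-like cells and low in the other classes. It stood at 213 and 269 CPM in artery-like cells and at 149.7 and 77.9 CPM in vein-like cells. Capillary-like cells held 6.92 and 10.9 CPM, tip-like cells 19.4 and 6.91 CPM, lymphatic-like cells 10.7 and 2.44 CPM, and pericyte-like cells 23.7 and 47.4 CPM. In the order artery, vein, pericyte, tip, capillary and lymphatic, the neighbours tip and capillary and the neighbours capillary and lymphatic did not pass a test of their difference, and the other neighbours did. The step from pericyte to tip passed only narrowly (edgeR adjusted p = 0.0486), and 1 cell weighed heavily in the pericyte-like sum of library 2, as given below. Edn1 was lower in capillary-like cells than in artery- and vein-like cells (log2 change -4.15 ± 0.48, SE, edgeR quasi-likelihood test, adjusted p = 3.19e-05), with no overlap between the libraries of these classes. Artery-like cells exceeded vein-like cells by a log2 change of 1.12 ± 0.33 (adjusted p = 0.0288), a call that was lost without the library as a block (adjusted p = 0.125), with DESeq2 (0.516) and with a stricter gate (0.0656). The log2 change was 1.78 in library 2 alone and 0.54 in library 1 alone.

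Edn1 was also found in more artery-like than vein-like cells. At an equal depth of 3000 UMIs per cell, 39.0% and 37.0% of artery-like cells had an Edn1 UMI, against 20.8% and 10.4% of vein-like cells. Without thinning the shares were 54.4% and 51.6% in artery-like and 34.6% and 20.1% in vein-like cells, at median depths of 6452 and 5853 and of 8304 and 8703 UMIs. Between 0.5% and 4.6% of the cells of the other 4 classes had an Edn1 UMI at equal depth. Single cells weighed heavily in some sums. In library 2, 1 vein-like cell held 47 of that sum's 125 Edn1 UMIs, and 1 pericyte-like cell held 43 of 79, whereas no artery-like cell held more than 14 of 326 and 29 of 419. With the cell richest in Edn1 left out of each class and library, the artery-like over vein-like log2 change was 1.37 (adjusted p = 0.00778).

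The 250 bases before the RefSeq start of Edn1 (GRCm38.p6, chr13:42301226-42301475, plus strand, overlapping no GENCODE exon) are shown with the window of Ednrb, because these genes of 1 pathway had opposite differences between capillary-like cells and artery- and vein-like cells. Both strands were searched for 8 motifs, which stand in capitals where found. They were the TATA box as TATAAA, the AP-1 motif as TGANTCA, the cyclic AMP response element as TGACGT, the E-box as CACGTG, the GATA factor motif as AGATAA, the ETS core as CCGGAA, the GC box as GGGCGG and the KLF motif as CCACCC. The Edn1 window holds none of them. Only the 250 bases before each annotated start were searched, so a motif outside the windows would be missed. The Ednrb window (chr14:103843702-103843951, minus strand) lies within the span of the GENCODE gene and outside its exons, and holds 1 cyclic AMP response element, in capitals, whose first base lies 203 bases before the start (bases_from_start -203). That motif is in 6.50% of 32536 windows of this length.
Edn1: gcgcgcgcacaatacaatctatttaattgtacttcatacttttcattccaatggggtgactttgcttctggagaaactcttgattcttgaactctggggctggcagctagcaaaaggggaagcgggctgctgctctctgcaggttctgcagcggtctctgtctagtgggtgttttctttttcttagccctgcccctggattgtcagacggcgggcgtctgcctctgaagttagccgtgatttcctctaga
Ednrb: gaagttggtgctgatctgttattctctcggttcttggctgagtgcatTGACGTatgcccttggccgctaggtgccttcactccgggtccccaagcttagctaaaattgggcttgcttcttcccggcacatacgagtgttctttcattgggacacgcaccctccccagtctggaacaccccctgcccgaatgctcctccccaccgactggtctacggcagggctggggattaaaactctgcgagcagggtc

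Ednrb, the endothelin receptor of endothelium, was spread over all 6 classes and highest in capillary-like cells. It reached 145 and 123 CPM in capillary-like, 99.7 and 103 CPM in tip-like and 102 and 48.7 CPM in lymphatic-like cells. Levels were 49.6 and 53.3 CPM in artery-like, 64.6 and 36.6 CPM in pericyte-like and 57.5 and 14.3 CPM in vein-like cells. The libraries differed most in vein-like cells and also in lymphatic-like cells, where library 2, the library with more NF-kB mRNA, was the lower. Of 19 immediate-early and stress genes, library 2 had more of 18 in vein-like and of 10 in lymphatic-like cells, and the part of these differences in the Ednrb values was not tested. No pair of neighbours in the order of means passed, but capillary-like cells exceeded artery- and vein-like cells by a log2 change of 1.67 ± 0.27 (edgeR adjusted p = 0.000644), with no overlap between libraries. At equal depth, 29.7% and 25.7% of capillary-like cells had an Ednrb UMI, against 11.3% and 10.4% of artery-like and 10.1% and 3.7% of vein-like cells.

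Ece1, the converting enzyme, was the most evenly spread member. It held 355 and 378 CPM in lymphatic-like, 332 and 379 CPM in artery-like cells and, in the vein-like class, 335 and 312 CPM, whereas capillary-like cells had 207 and 241 CPM, tip-like cells 186 and 211 CPM and pericyte-like cells 141 and 174 CPM. The first 3 classes lie above the other 3 in both libraries. Artery-like cells overlap with both lymphatic-like and vein-like cells, and lymphatic-like cells lie above vein-like cells, a difference that did not pass (edgeR adjusted p = 0.209). The step down from vein-like to capillary-like cells and that from tip-like to pericyte-like cells were the only neighbouring differences that passed. Capillary-like cells were lower than artery- and vein-like cells by a log2 change of -0.60 ± 0.10 (edgeR adjusted p = 0.000565).

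Partners of the endothelin genes were nearly absent from endothelium. Ednra, the receptor of mural cells, held 74.1 and 79.2 CPM (94 and 132 UMIs) in pericyte-like cells and from 0 to 2 UMIs in any endothelial sum. It was the only one of the 7 listed partners (Edn2, Edn3, Ednra, Ece2, Mme, Kel and Ecel1) that passed the low-count filter, and it was higher in pericyte-like than in endothelial cells (edgeR adjusted p = 6.56e-10). No fold is given against so few UMIs.

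Nos2, the inducible synthase, was highest in tip-like cells. Its level was 85.9 and 82.5 CPM in tip-like cells and 34.6 and 28.2 CPM in capillary-like cells. Artery-like cells had 3.26 and 12.2 CPM, vein-like cells 0 and 4.99 CPM, lymphatic-like cells 3.57 and 4.02 CPM, and pericyte-like cells 21.3 and 18.6 CPM. Both libraries of the tip-like class lie above every other sum. The 0 UMIs of vein-like cells in library 1 allow up to 1.71 CPM (3 UMIs of that sum, counting error only). Tip-like cells exceeded capillary-like cells by a log2 change of 1.43 ± 0.29 (edgeR adjusted p = 0.00829), a call that was lost without the library as a block (adjusted p = 0.0631) and with DESeq2 (0.145). Nos2 was the only one of the 7 tested members that passed there, where 4.87% of all genes passed (2.34% higher and 2.53% lower). Capillary-like cells exceeded artery- and vein-like cells by 2.83 ± 0.42 (adjusted p = 0.000344), with log2 changes of 1.82 in library 2 alone and 5.11 in library 1 alone, where vein-like cells had 0 UMIs.

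Nos2 was not higher in the dividing cells of the tip-like class. Dividing tip-like cells (19 and 38 cells) held 66.5 and 62.6 unscaled CPM of Nos2, and the other tip-like cells held 93.9 and 85.4. Nostrin had the opposite order, with 83.9 and 66.2 unscaled CPM in dividing and 29.6 and 34.6 in other tip-like cells. The dividing cells were deeper (medians of 16267 and 13017 UMIs, against 8247 and 9804), and these groups, chosen after values were known, were not tested. At equal depth, 20.3% and 21.7% of tip-like cells had a Nos2 UMI, against 10.1% and 7.4% of capillary-like, 1.0% and 2.8% of artery-like and 0.7% and 0.9% of lymphatic-like cells. Without thinning the tip-like shares were 56.8% and 52.0%.

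Nos3, the endothelial synthase, differed less between classes than Nos2. It stood at 74.4 and 87.9 CPM in artery-like cells, at 87.1 and 61.7 CPM in vein-like cells, and at 40.1 and 51.1 CPM in tip-like, 46.2 and 38.5 CPM in capillary-like, 44.4 and 15.9 CPM in lymphatic-like and 28.4 and 27.6 CPM in pericyte-like cells. Artery- and vein-like libraries overlap with each other and lie above all the rest. No pair of neighbours in this order passed, and of the 15 pairs of classes only 4 did, namely artery- and vein-like cells each against lymphatic- and pericyte-like cells. Capillary-like cells had a log2 change of -0.88 ± 0.29 from artery- and vein-like cells, which did not pass (edgeR adjusted p = 0.0703).

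Nostrin, whose product binds the endothelial synthase, was, among the 4 blood endothelial classes, lowest in artery- and vein-like cells, in which Nos3 was highest. Tip-like cells held 40.8 and 42.2 CPM and capillary-like cells 31.5 and 26.4 CPM, whereas artery-like cells held 3.92 and 5.13 CPM and vein-like cells 14.8 and 15.6 CPM. These 4 classes do not overlap, although tip- and capillary-like cells did not pass a test of their difference (log2 change 0.54 ± 0.20, edgeR adjusted p = 0.160). Capillary-like cells exceeded artery- and vein-like cells by a log2 change of 1.79 ± 0.24 (adjusted p = 0.000127). Artery-like cells had less than vein-like cells by a log2 change of -1.73 ± 0.36 (adjusted p = 0.00288), a call that was lost with every other marker left out of the gate (adjusted p = 0.0648) and with cells of up to 5% mitochondrial UMIs (0.371).

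The Nostrin window (GRCm38.p6, chr2:69135550-69135799, plus strand, overlapping no GENCODE exon) is shown beside the Ednrb window above, since both genes were higher in capillary-like than in artery- and vein-like cells. It holds 1 cyclic AMP response element, TGACGT in capitals, whose first base lies 28 bases before the start (bases_from_start -28), and none of the other 7 motifs.
Nostrin: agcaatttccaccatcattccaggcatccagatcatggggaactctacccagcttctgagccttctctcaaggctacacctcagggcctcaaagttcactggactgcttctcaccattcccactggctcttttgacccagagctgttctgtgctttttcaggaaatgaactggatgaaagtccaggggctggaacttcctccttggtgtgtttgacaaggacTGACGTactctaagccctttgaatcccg

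Some genes of nitric oxide supply and signalling were lower in capillary-like cells, in which Nos2 was higher. Of 20 tested genes of nitric oxide supply and signalling, 0 were higher and 6 lower in capillary-like than in artery- and vein-like cells, where 5.68% of all genes were higher and 5.37% lower, with a list median log2 change of -0.12 against 0.00 (-0.00135) for all genes. Among the 6 were Gucy1a1, a subunit of the nitric oxide receptor, Ass1, which makes the arginine precursor argininosuccinate (8.36 ± 4.50 CPM in capillary-like and 40.4 ± 18.6 CPM in artery- and vein-like cells, SD, n = 2, adjusted p = 0.000284), and Gch1, the first enzyme of the synthase cofactor tetrahydrobiopterin (30.4 ± 4.94 and 54.7 ± 9.88 CPM, adjusted p = 0.00346). Both p-values are from edgeR. Between tip-like and capillary-like cells 0 of the 20 passed with edgeR. Artery-like cells exceeded vein-like cells in 2 of the 20 and had less of 1, near the 18.8% of all genes that passed there, with Cav1, the caveolin that binds the endothelial synthase, at a log2 change of 0.71 ± 0.10 (adjusted p = 7.72e-05).

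Ptgs1, the constitutive cyclooxygenase, was highest in vein-like cells. Its level was 19.7 and 17.4 CPM in pericyte-like, 6.25 and 0.718 CPM in lymphatic-like, 12.5 and 10.4 CPM in tip-like, 23.8 and 39.7 CPM in capillary-like and 6.53 and 2.57 CPM in artery-like cells, against 223 and 117 CPM in vein-like cells. The lower vein-like library lies well above every sum of the other classes. Artery-like cells had less Ptgs1 than vein-like cells by a log2 change of -5.19 ± 0.46 (edgeR adjusted p = 1.21e-06). Of the neighbouring classes in the order of means, vein-like against capillary-like passed and the others did not. At equal depth, 6.5% and 8.0% of capillary-like cells and 2.1% and 1.4% of artery-like cells had a Ptgs1 UMI, against 44.9% and 28.8% of vein-like cells. Tip-like cells were below capillary-like cells by a log2 change of -1.53 ± 0.46, which did not pass (adjusted p = 0.0769).

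The 250 bases before the RefSeq start of Ptgs1 (GRCm38.p6, chr2:36230176-36230425, plus strand, overlapping no GENCODE exon) are shown as those of the member with the largest difference between artery- and vein-like cells. They hold none of the 8 motifs.
Ptgs1: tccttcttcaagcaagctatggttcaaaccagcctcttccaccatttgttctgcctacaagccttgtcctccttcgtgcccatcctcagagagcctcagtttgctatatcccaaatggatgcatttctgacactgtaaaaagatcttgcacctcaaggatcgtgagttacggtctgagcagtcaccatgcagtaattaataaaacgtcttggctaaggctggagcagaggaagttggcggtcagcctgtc

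Ptgs2 and Ptgis were at the limit of detection. Ptgs2, the inducible cyclooxygenase, had 0 UMIs in 11 of the 12 class and library sums, which allows from 0.431 to 2.37 CPM (3 UMIs of a sum), and 3 UMIs, all in 1 cell, in vein-like cells of library 2. Ptgis, the prostacyclin synthase, had 15 and 6 UMIs in artery-like cells (9.79 and 3.85 CPM) and from 0 to 4 UMIs in any sum of the other classes. Differences in Ptgs2 between classes were not detectable at this depth.

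Among the partners of the prostanoid members, 9 of 18 passed the low-count filter, and 2 were higher and 4 lower in artery-like than in vein-like cells, where 8.96% of all genes were higher and 9.82% lower. Slco2a1, the prostaglandin uptake transporter, was lower in artery-like (37.0 ± 15.1 CPM) than in vein-like cells (210 ± 20.2 CPM; log2 change -2.53 ± 0.49, edgeR adjusted p = 0.00175). So was Abcc4, an exporter of prostaglandins and cyclic nucleotides, at 3.23 ± 0.876 and 22.8 ± 4.01 CPM (adjusted p = 0.000133). Higher in artery-like cells were Tbxa2r, the thromboxane receptor, at 22.0 ± 0.646 and 3.29 ± 0.632 CPM (adjusted p = 0.000310) and Ptger4, a prostaglandin E2 receptor, at 50.6 ± 13.4 and 17.3 ± 18.3 CPM (adjusted p = 0.0243). Each SD is over 2 libraries. Ptgir, the prostacyclin receptor, was found in pericyte-like cells, at 20.5 and 28.2 CPM (26 and 47 UMIs), and held 0 or 1 UMI in each endothelial sum.

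**Figure D2:**
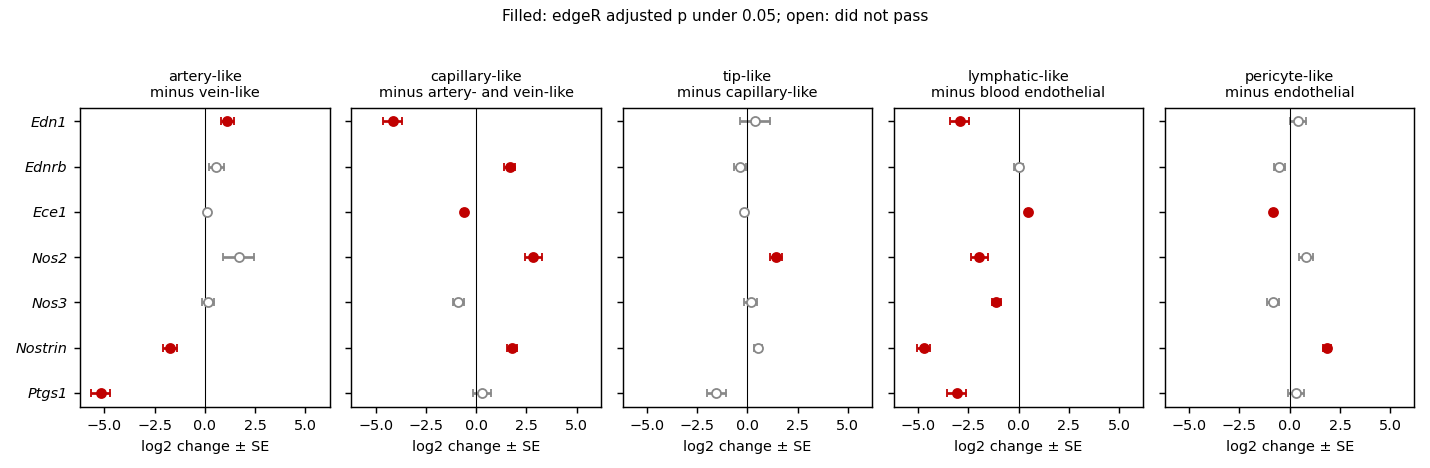
Log2 changes with SE (horizontal axes) of the 7 tested members in 5 comparisons of classes, from edgeR over all genes; filled points passed at an adjusted p under 0.05 and open points did not. Nostrin passed in 4 comparisons, with a log2 change of -4.72 in lymphatic-like and 1.85 in pericyte-like cells.

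The members' calls are given beside those of all genes. In artery-like against vein-like cells 3 of the 7 tested members passed (Ptgs1 and Nostrin lower, Edn1 higher), where 18.8% of 10838 genes passed (8.96% higher and 9.82% lower). Capillary-like against artery- and vein-like cells gave 5 of 7 (Ednrb, Nos2 and Nostrin higher, Edn1 and Ece1 lower), where 11.1% of genes passed (5.68% higher and 5.37% lower). The list medians were 0.15 and 0.30 on the log2 scale, against -0.03 and 0.00 (-0.00135) for all genes. Over all 15 pairs of classes, 67 of 105 tests of a member passed, where from 4.87% to 41.8% of all genes passed in a pair. For artery-like cells that background was 18.8% against vein-like, 16.7% against capillary-like, 26.2% against tip-like, 41.8% against lymphatic-like and 24.9% against pericyte-like cells. For vein-like cells it was 9.8% against capillary-like, 19.8% against tip-like, 34.8% against lymphatic-like and 21.1% against pericyte-like cells. For capillary-like cells it was 4.87% against tip-like, 33.4% against lymphatic-like and 17.2% against pericyte-like cells. Tip-like cells gave 33% against lymphatic-like and 23.5% against pericyte-like cells, and lymphatic-like against pericyte-like cells gave 37.1%. A member's count of pairs reads against these shares. Edn1 and Nostrin passed in 12 pairs each, Ece1 in 11, Nos2 and Ptgs1 in 10 each, Ednrb in 8 and Nos3 in 4. The comparisons share classes, so their counts are not independent.

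Lymphatic-like cells held Ednrb and Ece1 mRNA but little of most other members. At equal depth, their share with an Ednrb UMI was not above that of erythroid-like cells in both libraries. Edn1, Nos2, Nos3, Nostrin and Ptgs1 were lower in lymphatic-like than in blood endothelial cells, Ece1 was higher, and Ednrb did not pass, which makes 6 of 7 calls where 44.8% of genes passed (23.1% higher and 21.7% lower). Against single blood classes, Edn1 did not pass from capillary- or tip-like cells (edgeR adjusted p = 0.496 and 0.214). Neither did Nos2 from artery- or vein-like (0.169 and 0.535) or Nos3 from capillary- or tip-like cells (0.180 and 0.0669). Ptgs1 did not pass from artery-like (0.536), nor Ece1 from artery- or vein-like cells (0.760 and 0.209). Nostrin passed against each blood class. Ptgs1 had 3.49 ± 3.91 CPM in lymphatic-like and 54.4 ± 17.1 CPM in blood endothelial cells (SD, n = 2; log2 change -3.07 ± 0.48, edgeR adjusted p = 8.14e-05), and the change was -4.38 in library 2 alone and -1.99 in library 1 alone. Edn1 had 6.58 ± 5.85 and 94.2 ± 4.30 CPM (-2.93 ± 0.46, adjusted p = 8.62e-05), and Nos3 had 30.2 ± 20.1 and 60.9 ± 1.52 CPM (-1.10 ± 0.24, adjusted p = 0.00159), with -1.80 in library 2 alone and -0.40 in library 1 alone. Where the other side holds several classes, the log2 change uses the average of their logs, whereas the CPM given are plain averages, so their signs can differ.

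Nostrin was all but missing from lymphatic-like cells, with 3 UMIs in each library against 138 and 189 in the blood endothelial classes. The ratio of lymphatic-like over blood endothelial cells was 0.0408 (exact 95% interval 0.00832 to 0.122) and 0.0173 (0.00354 to 0.0514), for counting error only, and the difference passed (edgeR adjusted p = 1.38e-08). Nos2 stood at 3.80 ± 0.315 CPM in lymphatic-like and 31.5 ± 0.723 CPM in blood endothelial cells (log2 change -1.94 ± 0.41, adjusted p = 0.00128), which was lost with cells of up to 5% mitochondrial UMIs (log2 change -1.03, adjusted p = 0.208) and was -0.93 in library 1 alone. Ece1 stood at 366 ± 16.8 and 275 ± 14.7 CPM (log2 change 0.45 ± 0.08, adjusted p = 0.000181).

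Ednrb and Nos3 varied within the lymphatic-like class. Cells with a high score for lymphatic valve markers (68 and 72 cells) held 167 and 142 unscaled CPM of Ednrb, against 91.1 and 36.9 in the other lymphatic-like cells (224 and 510 cells). Nos3 stood at 92.2 and 48.8 unscaled CPM in the valve-marker cells and at 34.8 and 11.8 in the others. Both genes were higher in the valve-marker cells of each library, in a split chosen after values had been seen and not tested. Ece1 had no such order, at 319 and 402 against 381 and 366 unscaled CPM.

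The nitric oxide receptor followed another pattern. Gucy1a1 and Gucy1b1, the subunits of soluble guanylate cyclase, which turns nitric oxide into cyclic GMP, were higher in lymphatic-like than in blood endothelial cells. Gucy1b1 had 162 ± 48.8 CPM in lymphatic-like and 6.54 ± 2.41 CPM in blood endothelial cells (log2 change 5.26 ± 0.20, edgeR adjusted p = 1.32e-11). Gucy1a1 had 102 ± 26.6 and 20.4 ± 13.6 CPM (3.95 ± 0.30, adjusted p = 3.47e-08). Gch1, on the side of synthesis, was lower in lymphatic-like cells (5.09 ± 2.14 and 41.3 ± 6.04 CPM, adjusted p = 2.16e-09). Of the 20 tested genes of that list 9 were higher and 6 lower, where 23.1% of all genes were higher and 21.7% lower. Ace, the angiotensin-converting enzyme, was also lower, at 1.91 ± 0.670 in lymphatic-like and 106 ± 0.130 CPM in blood endothelial cells (adjusted p = 3.06e-11).

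**Figure D3:**
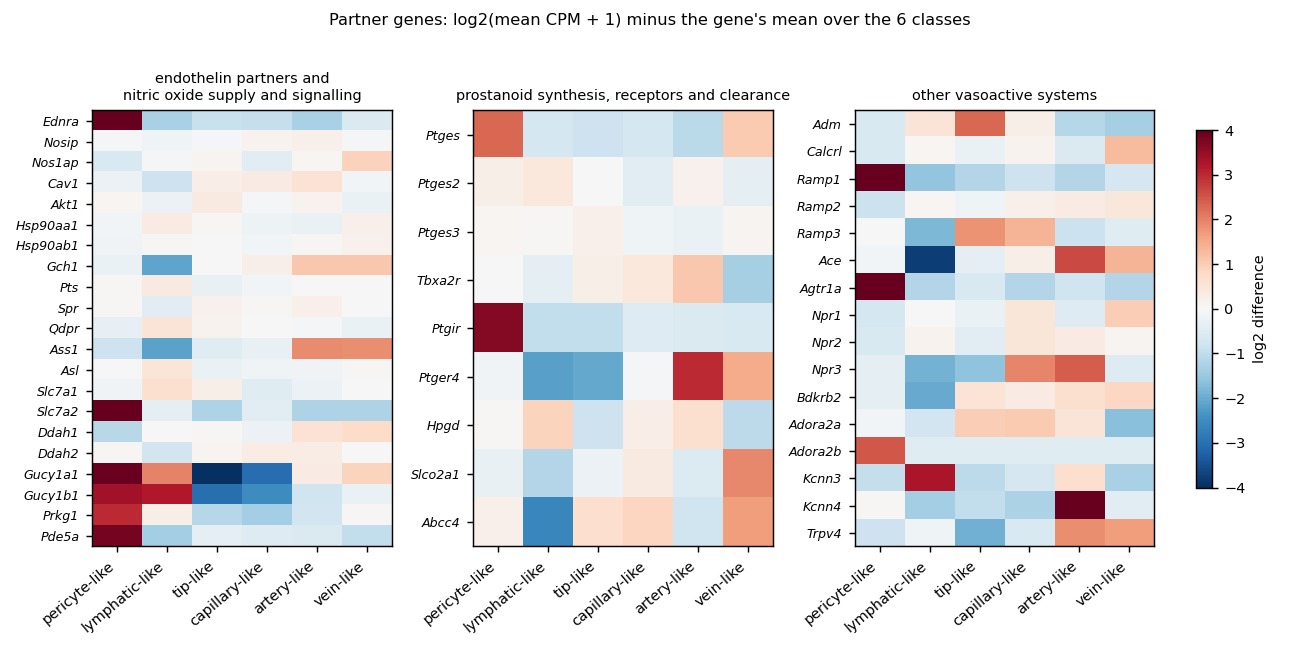
Partner genes of the members that passed the low-count filter, as log2(mean CPM + 1) in each class minus the gene's mean over the 6 classes (red above, blue below). Ednra, Ptgir, Agtr1a and Slc7a2 stand out in pericyte-like cells, Gucy1b1 in pericyte- and lymphatic-like cells, Ace and Kcnn4 in artery-like cells and Slco2a1 in vein-like cells.

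Pericyte-like cells carried receptors nearly absent in endothelial cells and nitric oxide targets that were low in blood endothelial cells. Gucy1a1 and Gucy1b1 were also higher in lymphatic-like than in blood endothelial cells, and the endothelial means given here include the lymphatic-like class. Gucy1a1 had 398 ± 54.2 CPM in pericyte-like and 36.8 ± 16.2 CPM in endothelial cells (SD, n = 2; log2 change 5.15 ± 0.24, edgeR adjusted p = 2.02e-10). Pde5a, the phosphodiesterase that breaks down cyclic GMP, had 61.6 ± 7.95 and 1.69 ± 0.282 CPM (5.28 ± 0.30, adjusted p = 2.06e-09). Agtr1a, an angiotensin II receptor, held 49.7 and 87.6 CPM in pericyte-like cells and 0 or 1 UMI in each endothelial sum. Of the 20 tested nitric oxide genes 5 were higher and 4 lower in pericyte-like cells, and of 9 tested prostanoid genes 2 were higher and 0 lower. Of all genes 13.6% were higher and 6.62% lower, so that the share of prostanoid genes that passed is near the 20.2% of all genes.

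The pericyte-like cells also held endothelial mRNA. UMIs of Pecam1 or Cdh5 were found in 84.2% and 76.9% of them, the 8 endothelial markers summed to 4250 and 3822 unscaled CPM, against 5086 to 8344 in the endothelial classes, and their median depths were 12685 and 11537 UMIs. The sort was on CD31 and the reporter, and how cells with pericyte markers came through it was not tested. Smooth muscle markers summed to 2600 and 1986 and fibroblast markers to 1187 and 1650 unscaled CPM in these cells, and the part of all these in the members' values was not tested. Nostrin was higher in pericyte-like than in endothelial cells (32.3 ± 6.68 and 18.2 ± 0.296 CPM, log2 change 1.85 ± 0.20, edgeR adjusted p = 4.00e-06) and Ece1 lower (158 ± 23.3 and 294 ± 15.1 CPM, -0.85 ± 0.09, adjusted p = 3.95e-06), which makes 2 of 7 where 20.2% of genes passed (13.6% higher and 6.62% lower). Against single classes, the pericyte-like Nostrin level did not pass a test of its difference from capillary-like (edgeR adjusted p = 0.735) or tip-like cells (0.183), and tip-like cells had the higher mean. Edn1 and Nos2 had lower mean CPM but positive log2 changes (0.42 and 0.80), since the log levels of several endothelial classes are low, and neither passed (adjusted p = 0.524 and 0.136). The Edn1 change was -0.07 without the cell richest in Edn1, -0.25 without dividing cells and -0.57 in library 1 alone.

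Pericyte-like cells without a Pecam1 or Cdh5 UMI numbered 15 and 31, with 87828 and 193803 UMIs. Their medians were 6174 and 5941 UMIs per cell, against 13554.5 and 12755 in those with such a UMI, and the part of depth in these values was not tested. Edn1, Nos2, Nos3 and Ptgs1 had 0 UMIs in them in both libraries, where 3 UMIs would be 34.2 and 15.5 unscaled CPM and the exact Poisson 95% interval ends at 42.0 and 19.0. In the pericyte-like cells with endothelial UMIs, Edn1 stood at 26.4 and 52.2, Nos2 at 23.8 and 20.5, Nos3 at 31.7 and 30.4, and Ptgs1 at 22.0 and 19.2 unscaled CPM. In library 1 these levels lie below the end of that interval, and in library 2 above it, Ptgs1 by little. Ece1 had 0 and 6 UMIs in the cells without endothelial UMIs (0 and 31.0 unscaled CPM), against 158 and 188 unscaled CPM in those with them. Nostrin was found in them, with 8 and 4 UMIs (91.1 unscaled CPM, exact Poisson 95% interval 39.3 to 179, and 20.6, 5.62 to 52.8) against 34.3 and 27.7 unscaled CPM in the cells with endothelial UMIs. These values were not tested.

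**Figure D4:**
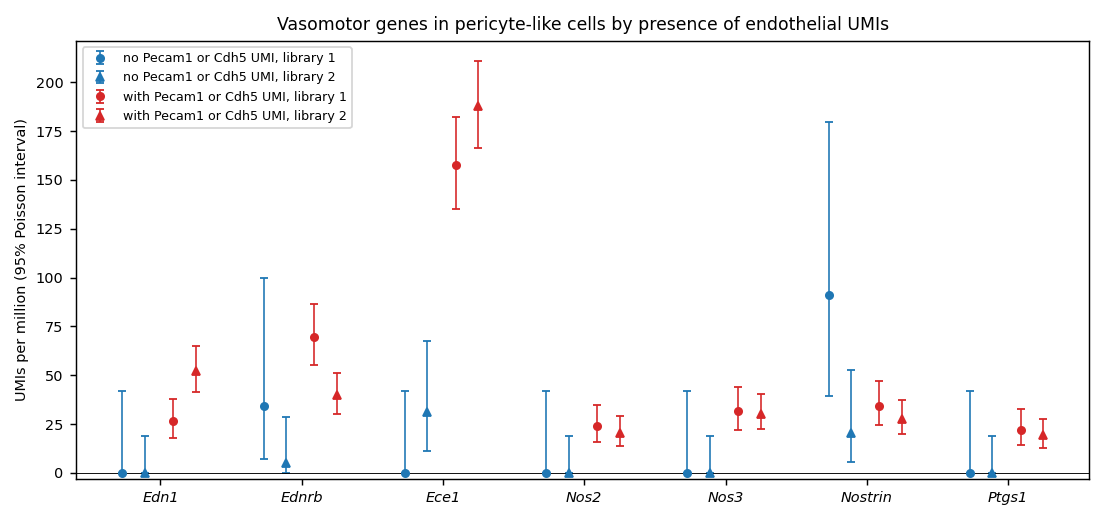
Unscaled CPM (vertical axis) of the 7 tested members in pericyte-like cells without (blue) and with (red) a Pecam1 or Cdh5 UMI, by library, with exact Poisson 95% intervals for counting error. Edn1, Nos2, Nos3 and Ptgs1 are at 0 in both libraries of the cells without endothelial UMIs, whereas Nostrin is at 91.1 and 20.6.

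The share of cells with a UMI was also taken at equal depth. All cells were thinned to 3000 UMIs, and 102 shallower cells were left out. Nostrin was found in 0% of lymphatic-like cells of both libraries after thinning (0.7% and 0.3% before it), at median depths of 8890.5 and 10270 UMIs, and in 10.5% and 10.0% of tip-like cells, at medians of 9146 and 10454. Free RNA was not corrected. Erythroid-like cells came through the same sort and numbered 32 and 54, with medians of 9904.5 and 10237 UMIs. They held 186 and 293 unscaled CPM of Ece1 and 48.5 and 37.4 of Nos3. Blood endothelial cells without a class held 200 and 231 unscaled CPM of Ece1 and 49.1 and 49.1 of Nos3. After thinning, 3.1% and 1.9% of the erythroid-like cells had an Edn1 UMI, 15.6% and 18.5% an Ednrb UMI, 34.4% and 51.9% an Ece1 UMI and 3.1% and 7.4% a Nos2 UMI. For Nos3 it was 15.6% and 16.7%, and for Nostrin and for Ptgs1 9.4% and 7.4%. Shares above these in both libraries were those of Edn1 in pericyte-, artery- and vein-like, Ednrb in tip- and capillary-like, Ece1 in lymphatic-, artery- and vein-like, Nos2 in tip- and capillary-like, Nostrin in tip-like, Nos3 in artery-like and Ptgs1 in vein-like cells. Edn1 in pericyte-like, Nos2 in capillary-like, Nos3 in artery-like and Nostrin in tip-like cells were only a little above in at least 1 library. The erythroid-like shares do not mark a limit of background, since these cells held Ece1 and Nos3 at such levels. Shares above or below them are therefore not read as presence or absence of expression, and the source of that mRNA was not tested.

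**Figure D5:**
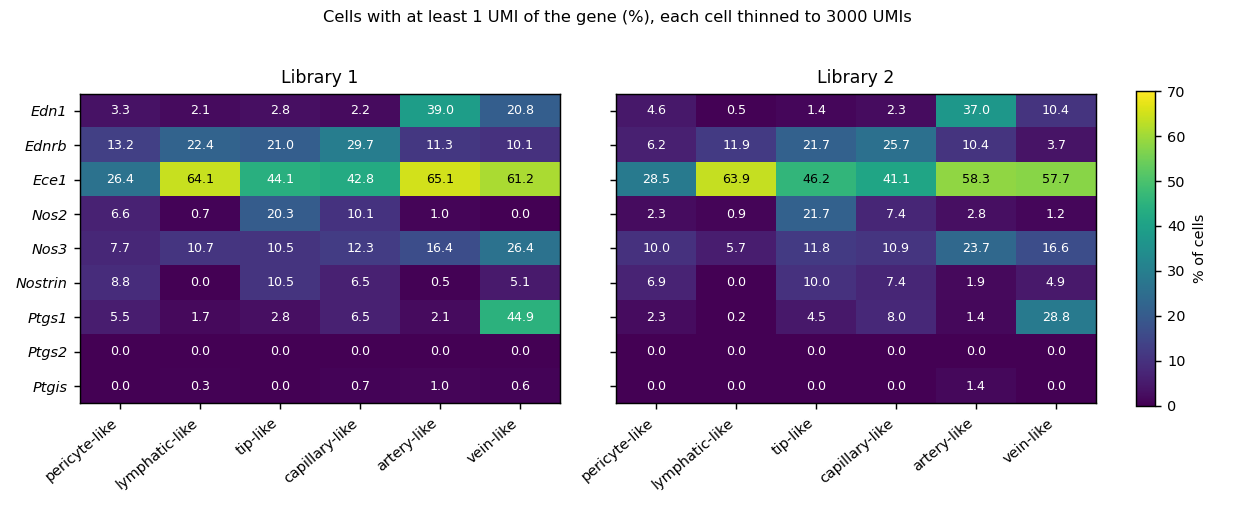
Percent of cells with at least 1 UMI of each gene (numbers and colour) in the 6 classes of library 1 (left) and library 2 (right), after every cell was thinned to 3000 UMIs. Ece1 is found in 26.4% to 65.1% of cells of every class, whereas Ptgs1 reaches 44.9% and 28.8% in vein-like cells and at most 8.0% elsewhere.

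Blood endothelial cells without a class lay between the blood classes in Edn1, Nos2, Nostrin and Ptgs1. Their unscaled CPM were 22.0 and 14.1 for Edn1, 27.6 and 26.3 for Nos2, 33.0 and 30.1 for Nostrin, and 38.1 and 30.1 for Ptgs1. Each of these lies inside the range of the 4 blood endothelial classes, which is wide. In library 1 their Ednrb, at 49.6, was near the artery-like level, the lowest of those classes. Ptgs2 had 0 UMIs in the 380 and 635 cells.

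ICAM1 protein, read by antibody tags in the same cells, gave a comparison that the gate had not used. Within artery-, capillary- and tip-like cells of each library, cells were split into 3 parts by their ICAM1 tag count, and the highest part was compared with the lowest. Icam1 mRNA was higher in the ICAM1-high cells (log2 change 1.27 ± 0.15, edgeR adjusted p = 3.57e-05), as a check of the tag. Of the members only Ednrb, Ece1, Nos2 and Nos3 passed the low-count filter in this fit, and 0 of 4 passed the test with edgeR or with DESeq2, where 2.55% of 6711 genes passed with edgeR (1.71% higher and 0.834% lower). Of the 4, 1 had an unadjusted p under 0.05, namely Ednrb (log2 change -0.84 ± 0.26, edgeR adjusted p = 0.0962). It passed with no low-count filter (adjusted p = 1.31e-06) and with none of the other alternatives.

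Ednrb differed most by ICAM1 tag in artery-like cells. Its level was 22.9 and 13.4 CPM in ICAM1-high and 117 and 110.3 CPM in ICAM1-low artery-like cells, and 98.7 and 106 CPM in ICAM1-high and 261 and 166 CPM in ICAM1-low capillary-like cells. In tip-like cells it was 108 and 106 CPM in ICAM1-high and 76.9 and 108 CPM in ICAM1-low cells, so the groups overlap there. Nostrin, below the filter, was higher in the ICAM1-high cells of each class and library, from few UMIs. It was at 35.6 and 59.5 CPM in ICAM1-high and 16.8 and 23.9 CPM in ICAM1-low tip-like cells. Capillary-like cells had 52.9 and 38.1 CPM, against 6.96 and 17.7 CPM in ICAM1-low cells (2 and 7 UMIs). Artery-like cells had 8.18 and 6.71 CPM, against 0 and 2.76 CPM (0 and 1 UMIs). The depth of the cells moved with the tag: ICAM1-high cells had medians of 7445 to 14230 UMIs and ICAM1-low cells of 5172.5 to 7597, and the part of depth in these values was not tested.

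The genes whose levels ran most like each member over the 12 class and library sums, among 6103 genes with a mean of at least 20 CPM, are given as a description, since the sums share libraries and cells. For Edn1 they were Card19, Marveld1 and Taok1 (Pearson r 0.95, 0.95 and 0.94), for Ednrb Irf3, Pold3 and Dusp6 (0.86, 0.85 and 0.84) and for Ece1 Lyl1, Igfbp4 and Fzd6 (0.95, 0.95 and 0.95). Nos2 ran with Nid2, Map4k5 and Sike1 (0.97, 0.96 and 0.95), Nos3 with Mfsd6, Cyb561 and Fbxl7 (0.93, 0.91 and 0.91), Nostrin with Col15a1, Vasp and Vwa1 (0.97, 0.96 and 0.96) and Ptgs1 with Pnrc1, Ptpn1 and Ogfrl1 (0.96, 0.96 and 0.93). Ednrb had the lowest leading value.

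Other vasoactive genes and flow-response genes differed between the same classes. Of 16 tested genes of other vasoactive systems, 5 were higher and 2 lower in artery-like than in vein-like cells, where 8.96% of all genes were higher and 9.82% lower. Ace had 247 ± 11.3 CPM in artery-like cells, against 102 ± 0.679 CPM in vein-like cells (SD, n = 2; log2 change 1.27 ± 0.15, edgeR adjusted p = 1.83e-05). Kcnn4, a calcium-activated potassium channel of endothelium, had 59.4 and 48.8 CPM in artery-like cells and 5 and 0 UMIs in vein-like cells (adjusted p = 4.84e-06). Calcrl, part of the receptors of adrenomedullin and CGRP, was lower in artery-like cells (53.6 ± 13.1 CPM, against 194 ± 53.6 CPM in vein-like cells, log2 change -1.86 ± 0.21, adjusted p = 1.53e-05). Of 8 tested flow-response genes, 0 were higher and 4 lower in capillary-like than in artery- and vein-like cells (5.37% of all genes were lower), among them Klf2 (log2 change -1.07 ± 0.11, adjusted p = 1.03e-05) and Klf4 (-0.91 ± 0.10, adjusted p = 2.77e-05), transcription factors of vessels under shear. Tip-like cells had less of 6 of these 8 than capillary-like cells, and 0 were higher, where 2.53% of all genes were lower.

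The members lie on chromosomes 13 (Edn1, 42301476 to 42307990), 14 (Ednrb, 103814625 to 103844402), 4 (Ece1, 137862237 to 137965229), 11 (Nos2, 78920787 to 78960254), 5 (Nos3, 24364810 to 24384474), 2 (Nostrin, 69135800 to 69189330, Ptgs1, 36230426 to 36252272, and Ptgis, 167191805 to 167240604) and 1 (Ptgs2, 150100031 to 150108227) of GRCm38 in GENCODE M21. Edn1, Ece1, Nos3, Ptgs1 and Ptgis overlap genes on the opposite strand there, Nos3 among them with Atg9b, and the sources used here do not say whether the counting used strand.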

How the data were processed

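Single-cell mRNA and antibody tag libraries of 2 biological replicates were used. The mRNA matrices hold deposited UMI counts per gene and cell, and the submitters' processing notes name Cell Ranger and the build mm10 for what the authors did. The matrix headers name version 3.0.2, and Seurat 3.0.2 is named without a role. The rule for keeping barcodes and the counting of tags stand in none of the sources used here. The libraries held 1745 and 2877 barcodes and 15989249 and 26675353 UMIs.

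Barcodes with under 500 genes or over 10% mitochondrial UMIs were left out. Scrublet in scanpy 1.11.5 removed 2 and 11 doublets, and free RNA was not corrected. Marker scores (141 markers in 16 sets, log of counts per 10000, standardized in each library) set the classes. A pericyte score over 1, a lymphatic score over 0.5, or a best blood score over 0.5 and ahead by 0.5 was required, with cut-offs chosen after marker levels, not member values, were seen. Cells scoring over 1 with at least 3 markers of another cell type were left out (44 and 72 cells).

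Sums per library and class were fitted in edgeR 4.0.16 (R 4.3.3) with TMM scaling, a low-count filter by class, the quasi-likelihood test, and Benjamini-Hochberg adjustment over 10838 genes at 0.05. The library was a block, since every class was cut from the same pair of libraries (same animals), which left 5 residual degrees of freedom. The ICAM1 fit had terms for class, library and tag group, with a low-count filter by tag group. Its artery-, capillary- and tip-like sums came from the same libraries, so classes within a library stood in for replicates of the tag difference there. The same script was tested on simulated counts. SE is the log2 change over the root of F. Alternatives were DESeq2 1.42.0, RLE scaling, no low-count filter, no block, other gates and cell filters, and leaving out a library. Named genes were the 9 members, up to 4 genes of each pathway list with the smallest adjusted p, and the 3 genes most like each tested member by r. Promoter sequences came from RefSeq, with 6 of 9 members matched. Members, lists and tests were chosen with earlier results of these data known. Intervals cover counting error only.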

Additional observations from a re-analysis of the deposited data

Results flagged for a closer look

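Nos3 did not pass by ICAM1 tag (log2 change 0.16, edgeR adjusted p = 0.798), but the sign of its difference was not the same in all classes. Nos3 was at 86.7 and 97.3 CPM in ICAM1-high and 52.8 and 82.7 CPM in ICAM1-low artery-like cells, and at 52.9 and 39.4 CPM in ICAM1-high and 41.8 and 35.3 CPM in ICAM1-low capillary-like cells. In tip-like cells it was 47.4 and 46.8 CPM in ICAM1-high and 48.1 and 59.0 CPM in ICAM1-low cells, which in library 1 is nearly equal (log2 change -0.019, from 28 and 20 UMIs). The mean log2 difference in artery-like cells differed from that in tip-like cells by 0.65, and the one in capillary-like cells differed from that in tip-like cells by 0.43. The differences between classes were not tested.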

How the results depend on the processing

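Across the alternatives other than leaving out a library, 301 of the members' values kept their direction and their side of the threshold, 14 passed where they had not before, 8 no longer passed, and 9 changed sign. Of 151 alternative values of results that had passed, 0 changed sign. The values with a changed sign were near 0 or had not passed: Ednrb in lymphatic-like against blood endothelial cells was -0.10 with a stricter gate and -0.58 with cells of up to 5% mitochondrial UMIs. In tip-like against capillary-like cells, Ece1 was 0.023 and Nos3 -0.015 with every other marker left out, and Nos3 was -0.0017 and Nostrin -0.21 at 5% mitochondrial UMIs. In pericyte-like against endothelial cells Edn1 was -0.25 without dividing cells and -0.067 without the cell richest in Edn1. By ICAM1 tag Ece1 was -0.046 when cells were ranked by the share of ICAM1 among tags, and leaving out a library gave -0.68 to 0.052 for Nos2 and -0.012 to 0.37 for Nos3. With a library left out, 7 members' values moved by more than the spread between libraries, and 10 of 44 that had not passed changed sign. The counts of genes that passed moved by over 1.5 times under these settings. Without the replicate block, 223 genes passed in tip-like against capillary-like cells and 60 by ICAM1 tag. With DESeq2 the counts were 1086 (artery-like against vein-like), 644 (capillary-like against artery- and vein-like), 250 (tip-like against capillary-like), 2808 (lymphatic-like against blood endothelial), 1242 (pericyte-like against endothelial) and 98 (ICAM1 tag). With no low-count filter they were 881 (tip-like against capillary-like) and 442 (ICAM1 tag). With cells of up to 5% mitochondrial UMIs they were 832, 454, 287 and 3046 in the first 4 comparisons of that order. In that setting 42 tests of members over pairs of classes passed. Pairs with pericyte-like cells were left out there (19 cells in library 2), so 42 is not on the same footing as the main 67 of 105 tests over 15 pairs. Splitting cells at the median ICAM1 tag gave 77, and leaving out a library gave 7 to 33. The main counts were 2035, 1198, 528, 4858, 2193 and 171. The cause of the moves in the counts of genes was not tested.

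In pericyte-like against endothelial cells, calls of Nos3 (lower) and Nos2 (higher on the log2 scale) appeared under 4 and 3 of 8 alternatives. The lowest edgeR adjusted p was 1.19e-05, with no low-count filter. The pericyte-like comparison was not run at 5% mitochondrial UMIs or without cells that hold Pecam1 or Cdh5 UMIs, since fewer than 20 cells remained in a library. Leaving out the cell richest in Edn1 was added after the data were seen. Depth limits Ptgs2, Ptgis and the pericyte-like cells without endothelial UMIs.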
